A study of Mus musculus with 64 samples.

Results

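Interferon-stimulated genes are genes that cells switch on in response to interferons, and they are described here in cultured mouse natural killer (NK) cells, innate lymphocytes that kill target cells and are a main source of interferon gamma. The set was given as 41 gene symbols. All 41 were found among the 36273 symbols of the count table, and the 38 with a mean of at least 2 CPM over the 64 libraries were taken as members. CPM are counts scaled to a library total of 1000000. They carry no TMM factor, a further scaling per library that the fold changes use. Statements that values overlap or lie apart refer to CPM, and close ones can turn around with that factor. The limit used the level over all libraries and no difference between groups. The symbols themselves were chosen with earlier results of these data known. Oasl2 at 2.05 CPM and Dhx58 at 2.16 CPM lay just inside the limit, and Mx1 at 1.11, Ifit3 at 0.906 and Oas1a at 0.892 CPM lay outside it. A test was possible for 36 members, because Dhx58 and Oasl2 did not pass the filter on low counts. The members held 0.249% of all counts, and Irf8 alone held 0.0968%.

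Type I interferons bind Ifnar1 and Ifnar2 and activate a complex with Stat2 and Irf9 that reads a DNA element called the ISRE, whereas interferon gamma binds Ifngr1 and Ifngr2 and acts through an element called GAS. The induced proteins sense nucleic acids, block viral RNA and protein synthesis, attach the ubiquitin-like protein ISG15 to other proteins, or attack the vacuoles of intracellular microbes. In NK cells some of these genes, among them Irf8 and Irf2, also serve development and expansion.

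Bulk 3' RNA sequencing was done on spleen NK cells kept in culture for 5 days with little IL-2 and with a complex of IL-15 and its receptor chain. The unstimulated cells were then left untreated, given prostaglandin E2 (PGE2) at 100 ng/ml, or given medium conditioned by BRAF-mutant tumour cells (CM), for 5 h. The stimulated cells received 1 h of the same treatment and then 4 h on antibody to NK1.1, an activating receptor. Wild-type (WT) cells came from C57BL/6J mice. EP2KO cells were Ptger2-/- Ptger4 fl/fl, so that they lack the PGE2 receptor EP2 and carry an unrecombined conditional allele of the receptor EP4. EP2/EP4KO cells were Gzmb-Cre Ptger2-/- Ptger4 fl/fl, in which a Cre named for granzyme B recombines Ptger4 in cells that express the Cre. Each of the 6 conditions had 4 libraries in WT and EP2KO and 3 in EP2/EP4KO, except WT with PGE2 and no stimulation, which had 2 (replicates 2 and 4). Nothing in the labels ties a replicate to an animal or a culture, and p-values therefore reflect only how much these samples varied, which may be technical variation.

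Several facts of the libraries touch the results. Totals ran from 753973 to 1693750 counts with a median of 1256163, so 1 count is close to 1 CPM. Markers of NK cells summed to between 5021 and 9469 CPM in every library. The T cell list summed to between 16.2 and 56.5 CPM, and the neutrophil list to between 10.2 and 467 CPM. Of the melanoma cell markers, Mlana, Dct, Tyr and Pmel were at 0 in 63, 62, 53 and 33 of 64 libraries. Mitf was at 0 in 7 and reached 5.99 CPM, and Sox10 was not among the symbols. The list of 10 macrophage and dendritic cell markers summed to between 104 and 550 CPM over the libraries. Of that list, Itgax, Cd74, H2-Ab1, Lyz2, H2-Aa and Cd68 had counts in every library, with means of 52.8, 47.4, 33.9, 32.1, 30.03 and 14.04 CPM. Csf1r was at 0 in 11 libraries, and the macrophage genes C1qa, C1qb and Adgre1 were at 0 in 61, 44 and 44. Xist, the RNA of the inactive X chromosome, ran from 476 to 970 CPM in WT and from 477 to 784 in EP2KO but from 28.3 to 66.3 in EP2/EP4KO, where Y-linked Ddx3y was at 52.3 to 177 CPM. Sex and the loss of EP4 therefore cannot be told apart in any comparison of EP2/EP4KO with the other genotypes. Ptger2 was counted at 2.45 to 12.97 CPM in EP2KO and at 2.17 to 14.6 CPM in EP2/EP4KO, and Ptger4 at 31.7 to 123 CPM in EP2/EP4KO. A 3' tag can lie outside a deleted part, so these counts check no genotype. In bulk RNA, fewer cells of a type and less RNA per cell cannot be told apart.

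The promoters of the members were read from RefSeq on GRCm38.p6, from 250 bases before to 50 bases after the annotated start. An entry existed for 28 of the 38 members. A core of the ISRE, written GAAANNGAAA and searched on both strands, was present for 13 of the 28 genes (46.4%) against 1079 of all 27025 genes with a promoter entry (3.99%). The GAS element, TTCNNNGAA, was present for 11 of the 28 (39.3%) against 9.55% of all genes. The cyclic AMP response element TGACGTCA, which CREB reads downstream of EP2 and EP4, was present for 0 of the 28 against 2.03% of all genes. A match describes these letters and does not show a used site. The sequences, 5' to 3' with ISRE and GAS matches in capitals, are those of 7 members picked after their values were seen. Irgm1, Samhd1, Irf8 and Gbp2 are the tested members with an entry whose levels moved most with the replicate number, as described later. Isg15 was called higher in stimulated EP2KO cells, Ifih1 rose with Irf8 on stimulation in all genotypes, and Lgals3bp fell:
Irgm1, chr11:48871371-48871670, minus strand: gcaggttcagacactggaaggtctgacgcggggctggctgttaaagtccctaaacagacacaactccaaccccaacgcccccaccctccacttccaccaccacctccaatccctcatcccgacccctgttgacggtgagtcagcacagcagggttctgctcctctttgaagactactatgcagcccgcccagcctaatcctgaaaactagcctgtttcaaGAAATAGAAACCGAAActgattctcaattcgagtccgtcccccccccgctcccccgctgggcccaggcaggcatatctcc
Samhd1, chr2:157135047-157135346, minus strand: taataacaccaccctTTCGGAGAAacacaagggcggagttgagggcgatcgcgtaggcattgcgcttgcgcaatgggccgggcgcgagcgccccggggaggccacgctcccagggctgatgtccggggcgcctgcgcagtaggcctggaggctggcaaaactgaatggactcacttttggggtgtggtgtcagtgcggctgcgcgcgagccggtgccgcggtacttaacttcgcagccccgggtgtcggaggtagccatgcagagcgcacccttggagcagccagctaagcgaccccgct
Irf8, chr8:120736108-120736407, plus strand: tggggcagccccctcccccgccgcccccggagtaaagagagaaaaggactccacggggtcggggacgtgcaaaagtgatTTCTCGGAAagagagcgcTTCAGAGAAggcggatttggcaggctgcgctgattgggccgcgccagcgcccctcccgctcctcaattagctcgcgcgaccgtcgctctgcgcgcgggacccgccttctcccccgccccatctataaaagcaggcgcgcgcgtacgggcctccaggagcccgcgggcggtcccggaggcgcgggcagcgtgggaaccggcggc
Gbp2, chr3:142620413-142620712, plus strand: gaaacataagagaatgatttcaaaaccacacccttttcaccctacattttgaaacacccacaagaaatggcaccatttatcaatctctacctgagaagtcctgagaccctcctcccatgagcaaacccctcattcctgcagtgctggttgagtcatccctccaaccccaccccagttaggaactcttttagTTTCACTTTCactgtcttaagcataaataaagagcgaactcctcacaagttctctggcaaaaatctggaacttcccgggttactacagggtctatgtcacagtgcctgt
Isg15, chr4:156200769-156201068, minus strand: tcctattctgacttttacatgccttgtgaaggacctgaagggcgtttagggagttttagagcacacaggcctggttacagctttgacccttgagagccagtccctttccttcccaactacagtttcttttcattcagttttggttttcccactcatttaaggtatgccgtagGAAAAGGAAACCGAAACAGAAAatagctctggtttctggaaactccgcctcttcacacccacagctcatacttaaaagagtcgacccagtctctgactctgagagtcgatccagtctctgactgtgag
Ifih1, chr2:62646206-62646505, minus strand: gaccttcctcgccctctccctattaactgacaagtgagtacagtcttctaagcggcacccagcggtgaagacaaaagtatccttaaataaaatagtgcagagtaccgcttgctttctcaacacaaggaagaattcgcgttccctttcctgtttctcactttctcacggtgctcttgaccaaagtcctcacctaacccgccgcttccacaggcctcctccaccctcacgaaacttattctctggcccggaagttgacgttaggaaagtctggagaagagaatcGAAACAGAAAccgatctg
Lgals3bp, chr11:118401910-118402209, minus strand: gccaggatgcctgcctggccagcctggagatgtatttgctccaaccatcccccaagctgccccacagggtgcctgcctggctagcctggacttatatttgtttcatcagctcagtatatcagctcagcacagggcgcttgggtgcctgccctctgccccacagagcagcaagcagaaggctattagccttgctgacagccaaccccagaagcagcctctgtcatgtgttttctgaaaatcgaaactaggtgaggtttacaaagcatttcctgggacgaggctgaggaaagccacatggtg

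In these windows Isg15 held 3 overlapping ISRE matches and Irgm1 held 2, and Gbp2 and Ifih1 held 1 ISRE match each. Irf8 held 2 GAS matches and Samhd1 held 1, neither with an ISRE match, and Lgals3bp held no match of either kind.

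Engagement of NK1.1 for 4 h was the comparison in which most members changed. In untreated WT cells 15 of 36 tested members passed an adjusted p of 0.05 in edgeR's quasi-likelihood test with Benjamini-Hochberg adjustment, 3 higher and 12 lower. That is 41.7% of the members, against a background of 42% of the 10723 tested genes, of which 23% were higher and 19.1% lower. The median log2 fold change was -0.35 for the members and 0.01 for all genes. The members that rose were the transcription factor Irf8, the RNA sensor Ifih1 and the GTPase Iigp1, and the falls included the sensor Zbp1, the regulators Irf7, Irf9 and Irf2, and the GTPases Gbp9 and Ifi47. In EP2KO cells 12 members passed, 7 higher and 5 lower (33.3%, against 33.3% of all genes, 18.4% higher and 15% lower), with medians of 0.05 and 0.01. Ifit1, 1 of the 7, reached the level limit and the filter only through the stimulated EP2KO libraries, and without it 11 of 35 members passed there (31.4%), 6 of them higher. In EP2/EP4KO cells 8 passed, 2 higher and 6 lower (22.2%, against 30.2% of all genes, 16.4% higher and 13.8% lower), with medians of -0.36 and 0.01. Irf8, Ifih1, Lgals3bp and Gbp9 were called the same way in all 3 genotypes, and no member was called in opposite directions. The plot of stimulation effects gives all 36 members by genotype.

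**Figure D1:**
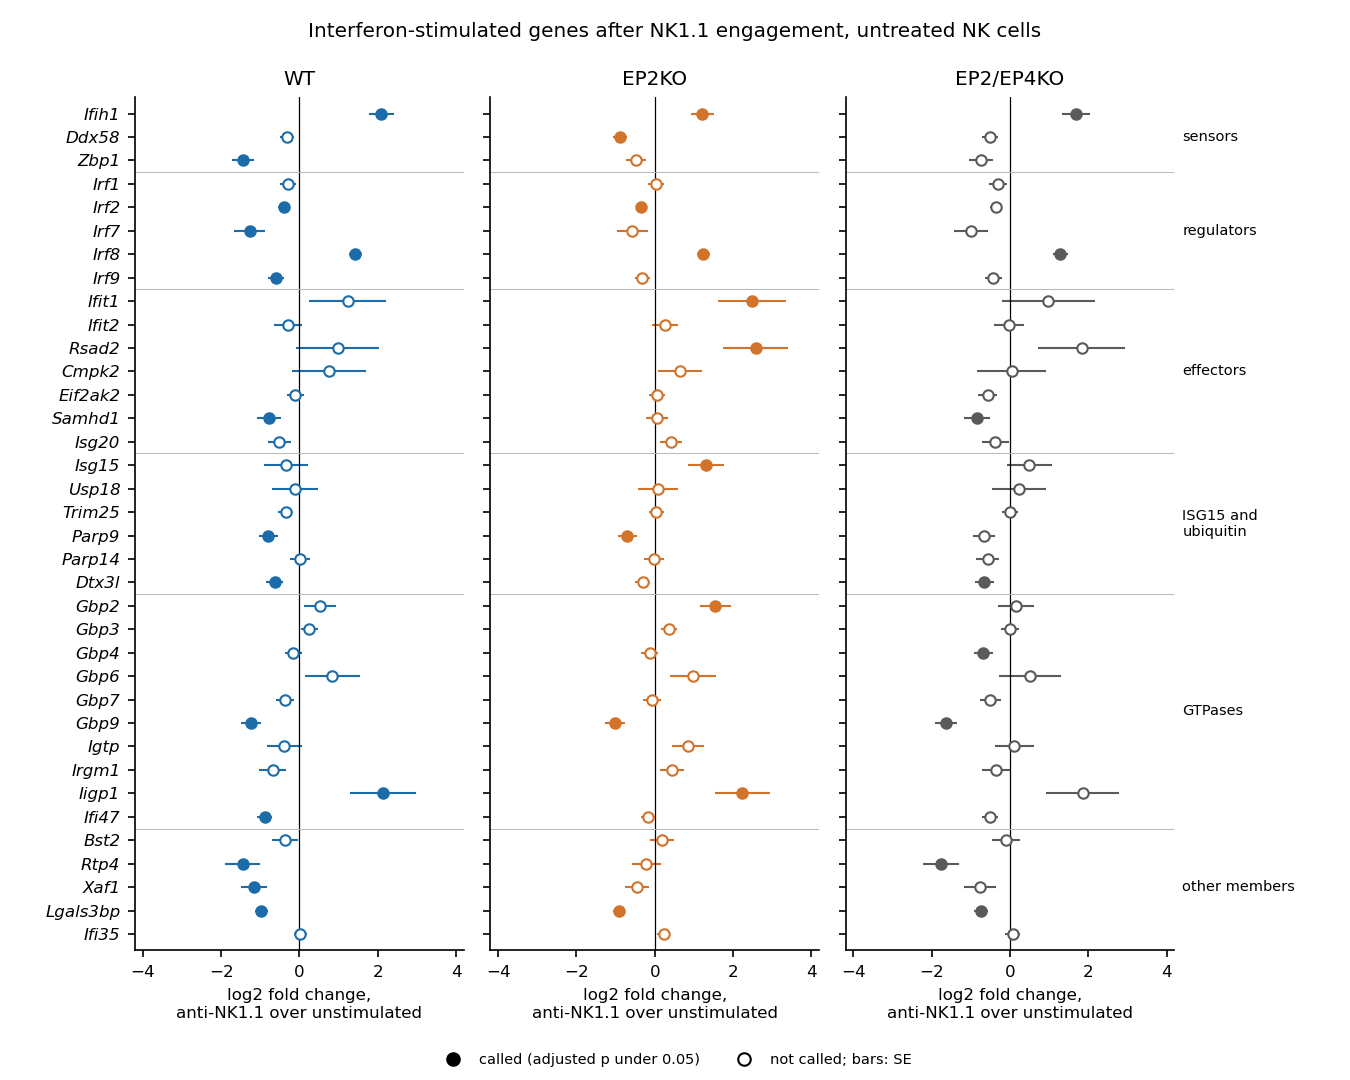
Log2 fold change of each tested member after anti-NK1.1 over unstimulated untreated cells (x axis), by genotype and ordered by role, with bars for the SE and filled points for called members. Irf8 and Ifih1 lie to the right and Lgals3bp and Gbp9 to the left in all 3 genotypes, and the widest bars belong to Ifit1, Rsad2 and Iigp1.

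Among the nucleic acid sensors, Ifih1 (MDA5, which binds long double-stranded RNA) was counted at 8.87, 8.23, 4.87 and 7.53 CPM in the 4 unstimulated WT libraries and at 28.4, 47.1, 24.4 and 19.1 CPM after stimulation. Every stimulated library lay above every unstimulated one, and the log2 fold change was 2.09 ± 0.33 (SE, adjusted p = 3.72e-07). In EP2KO, Ifih1 went from 12.5, 12.9, 16.3 and 16.7 to 38.2, 31.5, 15.02 and 37.2 CPM. Replicate 3 stayed among the unstimulated values, so these groups overlapped, and the log2 fold change was 1.21 ± 0.29 (adjusted p = 0.000725). In EP2/EP4KO, Ifih1 went from 11.8, 9.104 and 7.92 to 19.1, 31.9 and 32.3 CPM with no overlap (log2 fold change 1.68 ± 0.35, adjusted p = 0.000134). Zbp1, a sensor of Z-form nucleic acid, fell in WT from 36.96, 27.998, 36.04 and 32.6 to 14.9, 9.9997, 11.4 and 8.87 CPM, by 1.44 ± 0.29 on the log2 scale (adjusted p = 3.59e-05). The 2 groups of Zbp1 values did not overlap. Ddx58 (RIG-I, which binds RNA with a 5' triphosphate) fell in EP2KO from 69.9, 70.3, 68.6 and 61.8 to 24.1, 34.2, 26.3 and 47.1 CPM, again without overlap (log2 fold change -0.90 ± 0.18, adjusted p = 5.75e-05). Its log2 fold change in WT was -0.31 and did not pass, and the difference between the genotypes was -0.58 (adjusted p = 0.96).

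Of the regulators, Irf8, a factor of myeloid development that NK cells also use, was the most changed. It was at 504, 428, 459 and 490.3 CPM in unstimulated and at 1157, 817, 1389 and 1219 CPM in stimulated WT cells. In EP2KO it went from 425, 481, 469 and 541 to 945, 939, 1294 and 869.7 CPM, and in EP2/EP4KO from 487, 553 and 508 to 1229, 1063 and 1067 CPM. The groups were apart in every genotype, and the log2 fold changes were 1.42 ± 0.16, 1.24 ± 0.16 and 1.29 ± 0.19 (adjusted p = 5.60e-11, 3.58e-09 and 8.23e-08). The other regulators were lower or did not pass. Irf2, which competes with Irf1 for the same DNA element and is needed for NK cell maturation, fell in WT from 137, 167, 183 and 138 to 97.8, 135, 99.9 and 98.3 CPM (log2 fold change -0.41 ± 0.14, adjusted p = 0.0122). In CPM the stimulated values lay below all unstimulated ones, the nearest pair being 135 and 137. Division by the TMM factors of that pair, 1.003 and 1.025, reversed its order. The WT call of Irf2 was lost in 1 of 8 cases when 1 library was left out. In EP2KO Irf2 fell by 0.36 ± 0.13 (adjusted p = 0.0349), a call lost in 3 of 8 such cases, and neither Irf2 call was made without the filter. In EP2/EP4KO its log2 fold change of -0.37 did not pass (adjusted p = 0.0619).

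Irf7, which amplifies the type I interferon response, fell in WT from 16.3, 11.5, 6.82 and 11.7 to 5.22, 3.57, 3.25 and 5.46 CPM (log2 fold change -1.27 ± 0.40, adjusted p = 0.00846). These values did not overlap. In the knockouts the log2 fold changes of -0.57 ± 0.39 in EP2KO and -0.99 ± 0.43 in EP2/EP4KO did not pass. In EP2KO the value rested on replicate 4: it was -1.13 (adjusted p = 0.0363) and called without the stimulated library of that number, and -1.23 (adjusted p = 0.0280) without that number in every condition. The EP2KO minus WT difference for Irf7 was 0.70 (95% interval -0.43 to 1.84). Irf9, the DNA-binding part of the type I complex, fell in WT from 31.04, 38.7, 22.4 and 38.5 to 14.9, 20.7, 24.4 and 19.1 CPM (-0.60 ± 0.20, adjusted p = 0.0123). Stimulated replicate 3 at 24.4 CPM lay above unstimulated replicate 3 at 22.4 CPM, so the groups overlapped. The call was lost in 2 of 8 cases when 1 library was left out, in 3 of 4 cases when 1 replicate number was, and without the filter, and without replicate 3 in every condition the value was -0.91. The Irf9 values of -0.32 ± 0.19 in EP2KO and -0.43 ± 0.22 in EP2/EP4KO did not pass. Irf1, which interferon gamma induces, went from 70.2, 75.8, 54.6 and 78.6 to 45.5, 81.4, 49.5 and 35.5 CPM in WT and was called in none of the 35 comparisons. Its log2 fold changes on stimulation were -0.28 ± 0.21, 0.03 ± 0.20 and -0.30 ± 0.23 in WT, EP2KO and EP2/EP4KO.

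The other members that fell in WT were spread over the roles. Lgals3bp, a secreted glycoprotein that binds galectins, fell from 90.2, 83.99, 89.6 and 87.01 to 44.03, 46.4, 38.2 and 35.5 CPM, and the log2 fold change was -0.97 ± 0.16 (adjusted p = 9.18e-07). In EP2KO it fell from 102, 86.4, 97.2 and 90.2 to 46.9, 49.6, 31.6 and 52.4 CPM and in EP2/EP4KO from 63.3, 99.4 and 74.4 to 29.6, 53.1 and 43.02 CPM. No stimulated library of these 3 genotypes overlapped its unstimulated group, and the log2 fold changes in the knockouts were -0.91 ± 0.16 and -0.75 ± 0.18. Xaf1, named for its binding to the apoptosis inhibitor XIAP, went from 19.2, 21.4, 16.6 and 21.8 to 8.96, 8.57, 5.68 and 8.87 CPM in WT (-1.16 ± 0.33, adjusted p = 0.00344). Rtp4, a chaperone of membrane receptors, went from 11.1, 13.2, 5.84 and 7.53 to 2.99, 2.86, 2.44 and 4.09 CPM in WT (-1.45 ± 0.45). In EP2/EP4KO it went from 11.8, 18.2 and 14.3 to 1.97, 3.54 and 6.05 CPM (-1.76 ± 0.46, adjusted p = 0.00195). Neither Xaf1 nor Rtp4 overlapped between these groups. Parp9 and Dtx3l, which form a complex of ubiquitin and ADP-ribose transfer and overlap in the genome so that their counts may be shared, had log2 fold changes of -0.79 ± 0.25 and -0.63 ± 0.21 in WT. Samhd1, which breaks down deoxynucleotides, fell in WT from 80.6, 71.6, 68.2 and 57.7 to 29.9, 54.998, 34.1 and 30.02 CPM (-0.78 ± 0.30, adjusted p = 0.0298), with replicate 2 the highest of the stimulated libraries. The Samhd1 call was lost in 5 of 8 cases when 1 library was left out and in 3 of 4 when 1 replicate number was, and it was not made without the filter. It was kept at -1.04 without stimulated replicate 2 and at -0.98 without replicate 2 in every condition.

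The interferon-inducible GTPases, which assemble on the vacuoles of intracellular microbes, did not move as 1 group. Of 10 tested, 1 rose and 2 fell in WT, 2 rose and 1 fell in EP2KO, and 0 rose and 2 fell in EP2/EP4KO. These shares were not above the 42%, 33.3% and 30.2% of all genes called in the same comparisons. Gbp9 fell from 56.2, 44.5, 40.9 and 29.3 to 17.9, 20.7, 10.6 and 17.1 CPM in WT (log2 fold change -1.24 ± 0.25, adjusted p = 3.51e-05). It fell from 37.4, 37.1, 31.03 and 34.3 to 18.1, 19.4, 15.02 and 9.12 CPM in EP2KO and from 51.5, 34.1 and 45.9 to 9.87, 11.2 and 16.8 CPM in EP2/EP4KO, by 1.01 ± 0.25 and 1.63 ± 0.29. The groups were apart in each genotype, but Gbp9 overlaps Gbp4 in the annotation and their counts may be shared. Ifi47 fell in WT from 143, 135, 105 and 136 to 46.3, 74.998, 69.8 and 64.8 CPM without overlap (-0.89 ± 0.19, adjusted p = 7.10e-05). Iigp1 passed in the other direction in WT, at 10.3, 23.9, 8.77 and 13.4 CPM without and 20.9, 156, 45.5 and 10.2 CPM with stimulation (2.13 ± 0.84, adjusted p = 0.0383). Stimulated replicate 4 at 10.2 CPM lay among the unstimulated values while replicate 2 reached 156, and the call was lost in 4 of 8 cases when 1 library was left out, with values from 0.92 to 2.5, and without the filter.

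In stimulated EP2KO cells Gbp2, Isg15, Rsad2 and Ifit1 were called higher, besides Iigp1, Irf8 and Ifih1. Gbp2, a guanylate-binding protein, went from 58.2, 50.1, 49.8 and 77.4 to 176, 122, 60.8 and 268 CPM (log2 fold change 1.55 ± 0.39, adjusted p = 0.00155). Iigp1 went from 55.7, 17.8, 14.7 and 65.7 to 201, 107, 39.1 and 308 CPM (2.24 ± 0.69, adjusted p = 0.00995). Isg15, the ubiquitin-like modifier, went from 7.49, 2.42, 2.45 and 11.8 to 18.1, 13.4, 3.005 and 18.2 CPM (1.31 ± 0.46, adjusted p = 0.0221). In each of these, stimulated replicate 3 stayed among the unstimulated values. Rsad2 (viperin, which makes a chain-terminating nucleotide) went from 1.66, 1.62, 0.817 and 2.94 to 15.4, 4.02, 1.502 and 18.2 CPM, and Ifit1, which binds viral RNA caps, from 1.66, 2.42, 0.817 and 0.9803 to 12.7, 1.34, 1.502 and 16.7 CPM. Replicates 1 and 4 were the highest for both, with log2 fold changes of 2.58 ± 0.84 and 2.48 ± 0.86 (adjusted p = 0.0134 and 0.02). Over the 52 libraries other than stimulated EP2KO, Ifit1 had a mean of 1.95 CPM, under the limit of 2, so that its call follows in part from its choice and is a description. Rsad2 had 2.59 CPM over those libraries and passed the filter in them, but not over the 40 libraries of the other genotypes alone, and it was not called without the filter. In WT the log2 fold change was 0.52 ± 0.41 for Gbp2 and -0.34 ± 0.56 for Isg15, neither called, and in EP2/EP4KO it was 0.15 ± 0.46 and 0.50 ± 0.57, neither called.

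The difference of the stimulation effect between EP2KO and WT was positive for 31 of 36 members and for 47.2% of all genes, with a median of 0.31 against -0.03. It passed for 0 members and 0% of all genes. At an unadjusted p under 0.05 there were 9 members (25%) and 4.29% of all genes, and DESeq2 called 0 members. For EP2/EP4KO minus EP2KO it was negative for 30 of 36 and for 48.8% of all genes, with a median of -0.37 against 0.01. Again 0 members and 0% of all genes were called, with 3 members (8.33%) and 2.12% of all genes at an unadjusted p under 0.05 and 0 members by DESeq2. For Isg15 the difference was 1.65 (95% interval 0.19 to 3.11) between EP2KO and WT, and for Gbp2 it was 1.02 (-0.12 to 2.17). Over the 33 members that met the level limit and the filter without EP2KO libraries, 29 of the first differences were positive and 27 of the second negative, with medians of 0.31 and -0.35. These differences share the EP2KO libraries, members vary together between libraries, and neither the differences nor the members are independent of each other.

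In EP2/EP4KO, samples with the same replicate number deviated together, and a fit with the replicate number as a block called 17 members after stimulation, 3 higher and 14 lower, in place of 8. That is 47.2% of the members, against 38.4% of all genes in the same fit, 20% higher and 18.4% lower. It added Iigp1 at 1.73 (adjusted p = 0.000173) to the members that rose. It added Irf7 at -0.99, Irf2 at -0.38, Zbp1 at -0.77, Ddx58 at -0.53, Eif2ak2 at -0.58, Ifi47 at -0.51, Parp9 at -0.67 and Parp14 at -0.57 to those that fell. Without the block, the lower calls there were Gbp9, Rtp4, Lgals3bp, Dtx3l, Gbp4 and Samhd1, the last 3 at -0.65 ± 0.24, -0.68 ± 0.25 and -0.84 ± 0.33.

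Within a group, many members had their highest or lowest CPM in the same library. Among untreated stimulated WT libraries, replicate 2 was the highest of the 4 for 29 of 38 members and for 10 of 10 GTPases. Among untreated stimulated EP2KO libraries, replicate 4 was the highest for 31 of 38 members and 9 of 10 GTPases, and replicate 3 the lowest for 28 and for 9. Among untreated stimulated EP2/EP4KO libraries, replicate 1 was the lowest of the 3 for 31 of 38 members and 10 of 10 GTPases. These counts use CPM without the TMM factors, and the matching shares over all genes are not given here. The factors were 0.987, 1.003, 0.894 and 0.882 in WT and 0.943, 0.939, 0.873 and 0.986 in EP2KO. In EP2/EP4KO they were 0.907, 0.951 and 0.957, so the same libraries held the highest or lowest factor. The counts therefore do not set the members apart. The summed GTPases were 431, 922, 406 and 325 CPM in these WT libraries. The EP2KO libraries had 909, 725, 385 and 1563 CPM, and the EP2/EP4KO libraries 316, 661 and 553. Over all 18 groups, the replicate number within a genotype, over both states, took 42.2% of the within-group variance of a median member. The share was 50.4% for a median GTPase and 32.4% for the median of all tested genes. Iigp1 was at 79.5%, which is the 99.0th percentile of all tested genes.

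**Figure D2:**
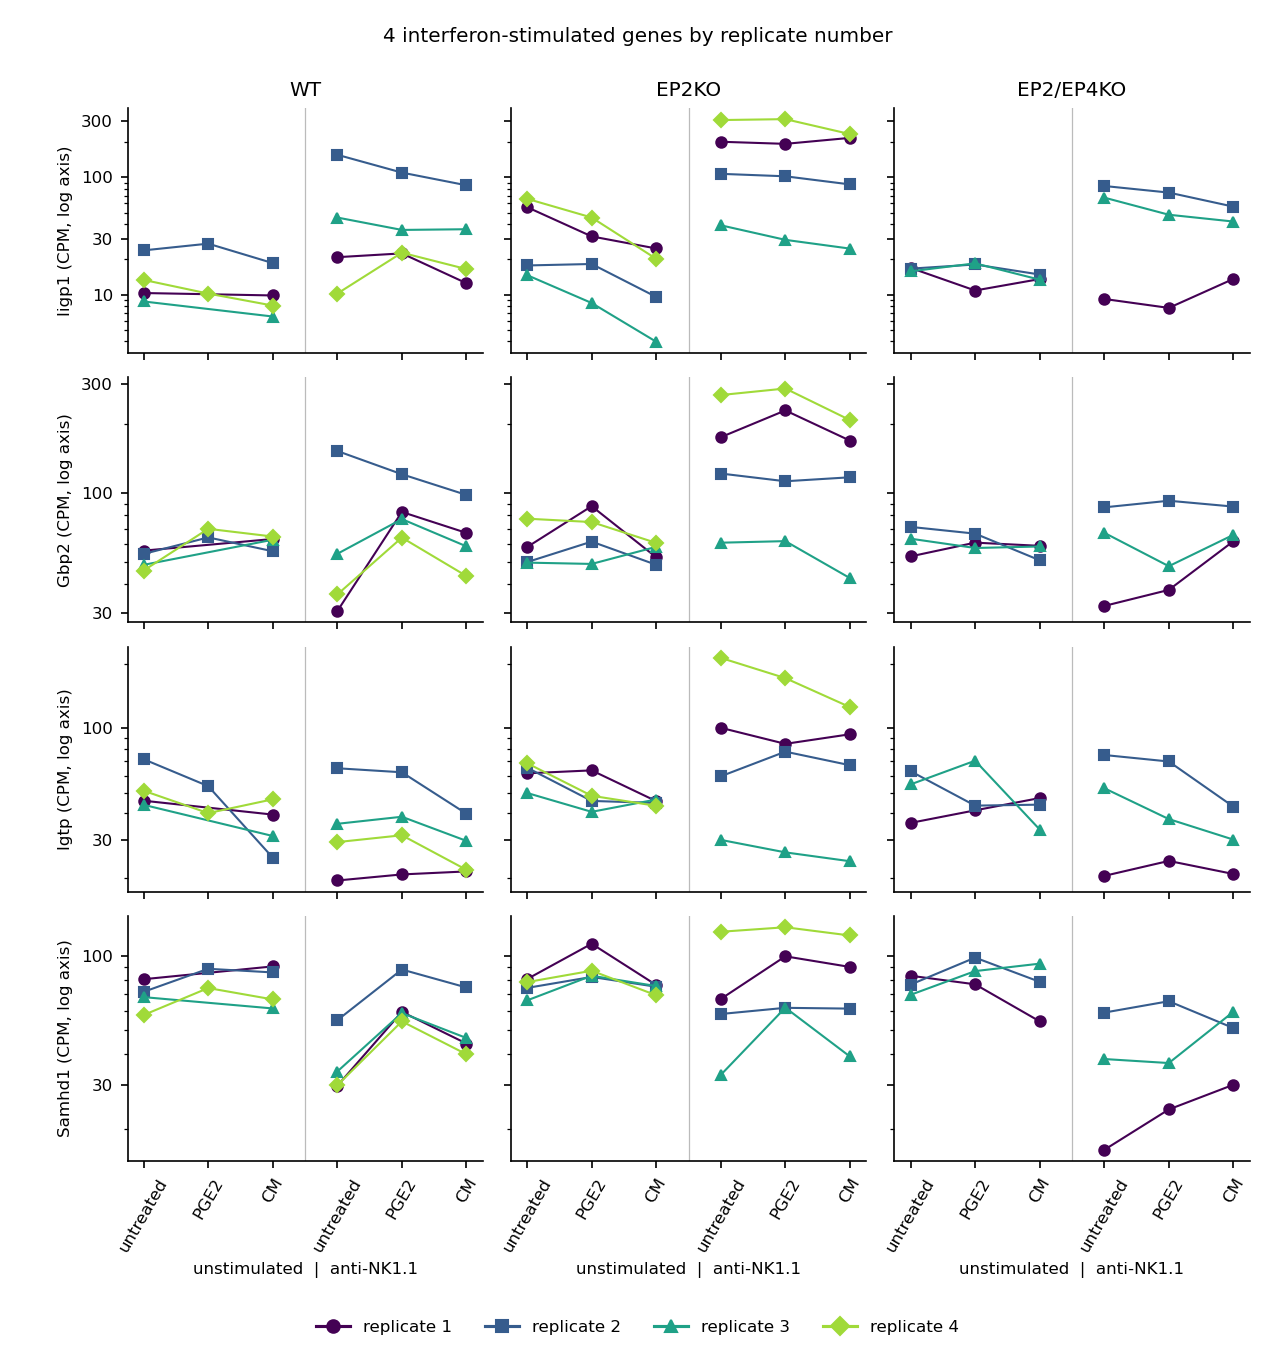
Iigp1, Gbp2, Igtp and Samhd1 in every library (CPM, log axis), by genotype and condition, with lines joining libraries of the same replicate number within a state. After anti-NK1.1, replicate 2 lies on top in WT, replicates 4 and 1 on top and 3 at the bottom in EP2KO, and replicate 1 at the bottom in EP2/EP4KO for most points, whereas the unstimulated libraries lie closer together except for Iigp1.

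The same libraries were ordered in a similar way with PGE2 and CM. Iigp1 was at 22.5, 109.8, 35.7 and 22.8 CPM in stimulated WT cells with PGE2 and at 12.5, 85.6, 36.2 and 16.5 CPM with CM. In EP2KO it was at 193, 102, 29.4 and 313 CPM with PGE2 and 217, 87.1, 24.7 and 234 CPM with CM. In EP2/EP4KO it was at 7.73, 74.2 and 48.05 CPM with PGE2 and 13.6, 56.3 and 42.04 CPM with CM. Replicate 2 was the highest in WT, replicate 3 the lowest in EP2KO and replicate 1 the lowest in EP2/EP4KO under all 3 treatments.

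Markers of macrophages and dendritic cells were ordered by replicate number in a similar way before and after stimulation. In untreated unstimulated cells they summed to 147, 257, 137 and 125 CPM in WT and to 349, 241, 169 and 325 in EP2KO. The sums in untreated unstimulated EP2/EP4KO were 157, 243 and 210. After stimulation the sums were 143, 207, 165 and 120 CPM in untreated WT and 313, 198, 134 and 289 in untreated EP2KO. In untreated stimulated EP2/EP4KO they were 122, 212 and 210. In untreated stimulated EP2KO replicate 3 was the lowest for 8 of the 10 markers with a count. The neutrophil list summed to 277, 126, 23.3 and 156 CPM in the same EP2KO libraries. In untreated stimulated WT that list summed to 21.6, 100, 16.2 and 10.2 CPM, and in EP2/EP4KO to 16.4, 89.7 and 20.2. In unstimulated libraries the marker sums covered 104 to 550 CPM while the GTPase sums stayed between 533 and 834 CPM, and after stimulation the GTPase sums ran from 316 to 1563. Of the 7 macrophage and dendritic cell markers that were tested, 1 fell and 0 rose on stimulation in WT and 0 passed in EP2KO. The part of these cells in the members' levels was not tested.

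**Figure D3:**
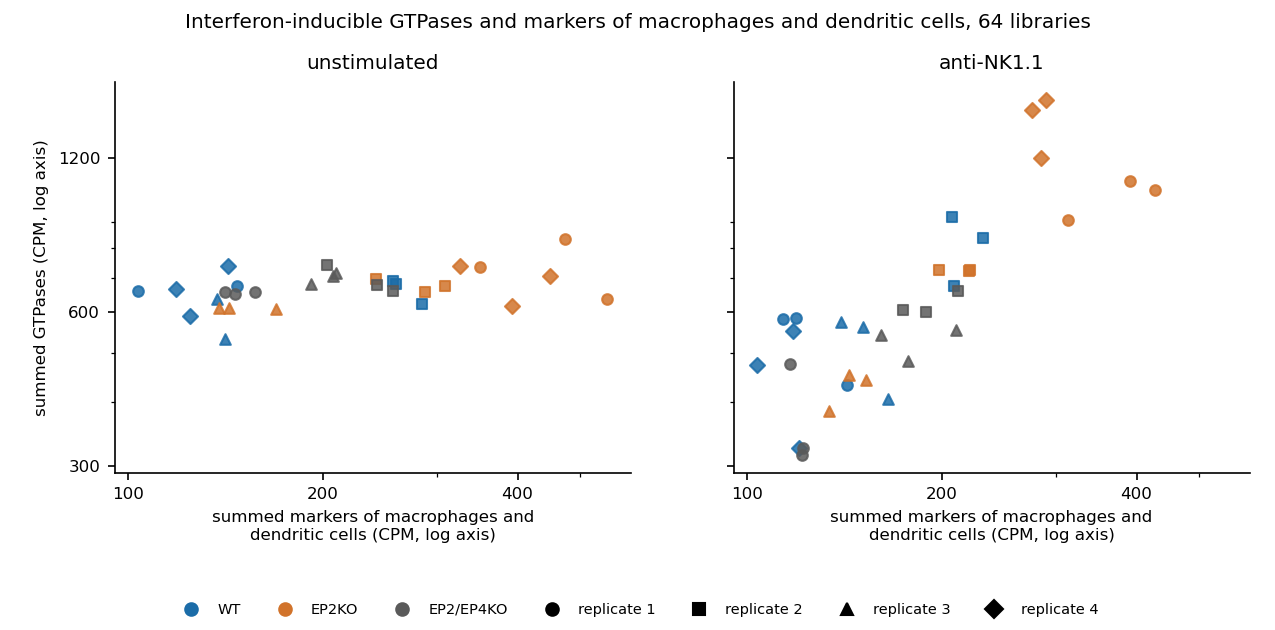
Summed CPM of the 10 GTPases (y, log axis) against summed CPM of the macrophage and dendritic cell markers (x, log axis) for each library, unstimulated on the left and after anti-NK1.1 on the right, coloured by genotype and shaped by replicate number. On the left the GTPase sums stay between 533 and 834 CPM across the marker range, and on the right they spread from 316 to 1563, with EP2KO replicates 1 and 4 at the upper right.

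Between untreated cells of different genotypes no member was called. For EP2KO against WT 0 members passed without stimulation, against 0.0653% of all genes, with 2 at an unadjusted p under 0.05 and 0 by DESeq2, and the member median was 0.08. After stimulation 0 members passed against 0.0746% of all genes, and DESeq2 called 0. There 32 of 36 values were positive against 45.5% of all genes, the median was 0.55 against -0.03, and 14 members (38.9%) had an unadjusted p under 0.05 against 6.14% of all genes. Ifit1, Rsad2 and Cmpk2 met the level limit and the filter together only with the EP2KO libraries. Over the 33 other members 29 values were positive, the median was 0.45 and 12 had an unadjusted p under 0.05. Isg15 had a log2 difference of 1.74 ± 0.48 (adjusted p = 0.236), Igtp 1.41 ± 0.42, Irgm1 1.19 ± 0.33 and Ifi47 0.70 ± 0.19 (adjusted p = 0.193). The values overlapped: Isg15 was at 0.746, 4.29, 5.68 and 4.78 CPM in WT and 18.1, 13.4, 3.005 and 18.2 CPM in EP2KO. Leaving replicate 3 out of every EP2KO condition gave 6 calls, all higher, in Cmpk2 (2.41), Gbp2 (1.45), Ifi47 (0.83), Igtp (1.71), Irgm1 (1.44) and Isg15 (2.05), against 0.262% of all genes in that fit. Leaving WT replicate 2 out of every condition gave 1 call, Gbp2 at 1.90, against 0.116%. These omissions were chosen after the members' order by replicate number was seen. They take out the number that was lowest in EP2KO or highest in WT for most members, which by itself raises the difference. No other omission of a replicate number gave a member call here, so these calls are a description and no support for a genotype difference. For EP2/EP4KO against EP2KO 0 members passed in either state, against 0.056% and 0.0839% of all genes. There 33 of 36 values were negative after stimulation against 49.5% of all genes, with a median of -0.44, and DESeq2 called 0. At an unadjusted p under 0.05 there were 13 members (36.1%) after stimulation against 4.92% of all genes, and 1 member before it against 5.3%. Over the 33 members that did not depend on the EP2KO libraries, 30 values were negative after stimulation, with a median of -0.39 and 11 at an unadjusted p under 0.05.

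No member was called with PGE2 in unstimulated cells. In WT 0 of 36 passed against 2.97% of all genes, with 2 at an unadjusted p under 0.05 and 1 by DESeq2. In EP2KO 0 passed against 3.15%, with 3 at an unadjusted p under 0.05 and 0 by DESeq2, and in EP2/EP4KO 0 passed against 0%, with 0 at an unadjusted p under 0.05 and 0 by DESeq2. The member nearest to a call was Irf8, at 619 and 791 CPM in the 2 WT libraries with PGE2, both above the 4 untreated values of 428 to 504. Its log2 fold change was 0.62 ± 0.19 (adjusted p = 0.0628), and DESeq2 gave 0.60 (adjusted p = 0.0363). In EP2KO, Irf8 was at 575, 714, 718 and 614 CPM with PGE2, again above all untreated libraries (0.49 ± 0.16, adjusted p = 0.0821). Same-numbered EP2KO libraries deviated together in this comparison, and the fit with the replicate block called Irf8 alone, at 0.48 (adjusted p = 0.00145), against 6.02% of all genes. In EP2/EP4KO, Irf8 was at 499, 627 and 544 CPM with PGE2, overlapping the untreated values (0.13 ± 0.18).

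CM without stimulation changed 3 members in WT, 2 higher and 1 lower (8.33%), against 8.23% of all genes, of which 4.55% were higher and 3.68% lower. Irf8 was at 702, 554, 692 and 702 CPM, above all untreated libraries, with a log2 fold change of 0.54 ± 0.16 (adjusted p = 0.0248). Lgals3bp was at 113, 111, 125 and 137 CPM against 90.2, 83.99, 89.6 and 87.01 untreated, also without overlap (0.51 ± 0.15, adjusted p = 0.0208). Ifi35, a leucine zipper protein, fell from 66.5, 61.8, 54.6 and 64.4 to 26.6, 38.3, 40.5 and 43.5 CPM (-0.70 ± 0.18, adjusted p = 0.00931), and its groups did not overlap. Leaving out single libraries ended the Irf8 call in 6 of 8 cases and the Lgals3bp call in 5 of 8. Leaving out a replicate number ended them in 3 of 4 and 4 of 4 cases, and Lgals3bp was not called without the filter. In EP2KO 0 members passed against 4.37% of all genes, with 4 at an unadjusted p under 0.05 and 0 by DESeq2. Irf8 there was at 555, 642, 796 and 552 CPM (0.45 ± 0.16, adjusted p = 0.1), all above the untreated values. In EP2/EP4KO 0 passed against 0%, with 0 at an unadjusted p under 0.05 and 0 by DESeq2, and Irf8 stood at 477, 488 and 458 CPM (-0.10 ± 0.18). The EP2/EP4KO minus EP2KO difference for Irf8 was -0.55 (95% interval -1.04 to -0.06, adjusted p = 0.797) with CM and -0.36 (-0.85 to 0.13) with PGE2.

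In stimulated cells PGE2 changed 3 members in WT, 2 higher and 1 lower. That is 8.33% of the members against 15.6% of all genes (6% higher and 9.63% lower), with 15 members (41.7%) and 27.5% of all genes at an unadjusted p under 0.05 and medians of 0.06 for the members and -0.05 for all genes. Ifih1, which stimulation had raised, was at 10.8, 12.97, 12.5 and 11.4 CPM with PGE2 against 28.4, 47.1, 24.4 and 19.1 without it. Every PGE2 library lay below every untreated one, and the log2 fold change was -1.43 ± 0.31 (adjusted p = 0.000385). Irf2, which stimulation had lowered, was at 185, 190.2, 175 and 142 CPM with PGE2 against 97.8, 135, 99.9 and 98.3 without it (0.56 ± 0.14, adjusted p = 0.0018), and these groups were apart. Trim25, a ubiquitin ligase that acts with RIG-I, rose from 29.1, 38.6, 28.4 and 21.2 to 54.04, 57.1, 45.3 and 42.99 CPM without overlap (0.64 ± 0.19, adjusted p = 0.0101). Irf8 was at 1400.5, 1391, 1601 and 1506 CPM with PGE2, all above the untreated CPM of 817 to 1389. Division by the TMM factors, 0.894 for untreated replicate 3 and 1.059 for PGE2 replicate 1, did not keep this order. The log2 fold change of Irf8, 0.23 ± 0.16, did not pass (adjusted p = 0.381). Same-numbered WT libraries deviated together in this comparison, and the fit with the replicate block called 9 members (25%), 7 higher and 2 lower, against 21.7% of all genes, 8.43% higher and 13.3% lower. It added Irgm1 at 0.82, Samhd1 at 0.69, Gbp9 at 0.63, Dtx3l at 0.48 and Lgals3bp at 0.41 to the higher members and Isg20, an RNA exonuclease, at -0.87 to the lower.

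**Figure D4:**
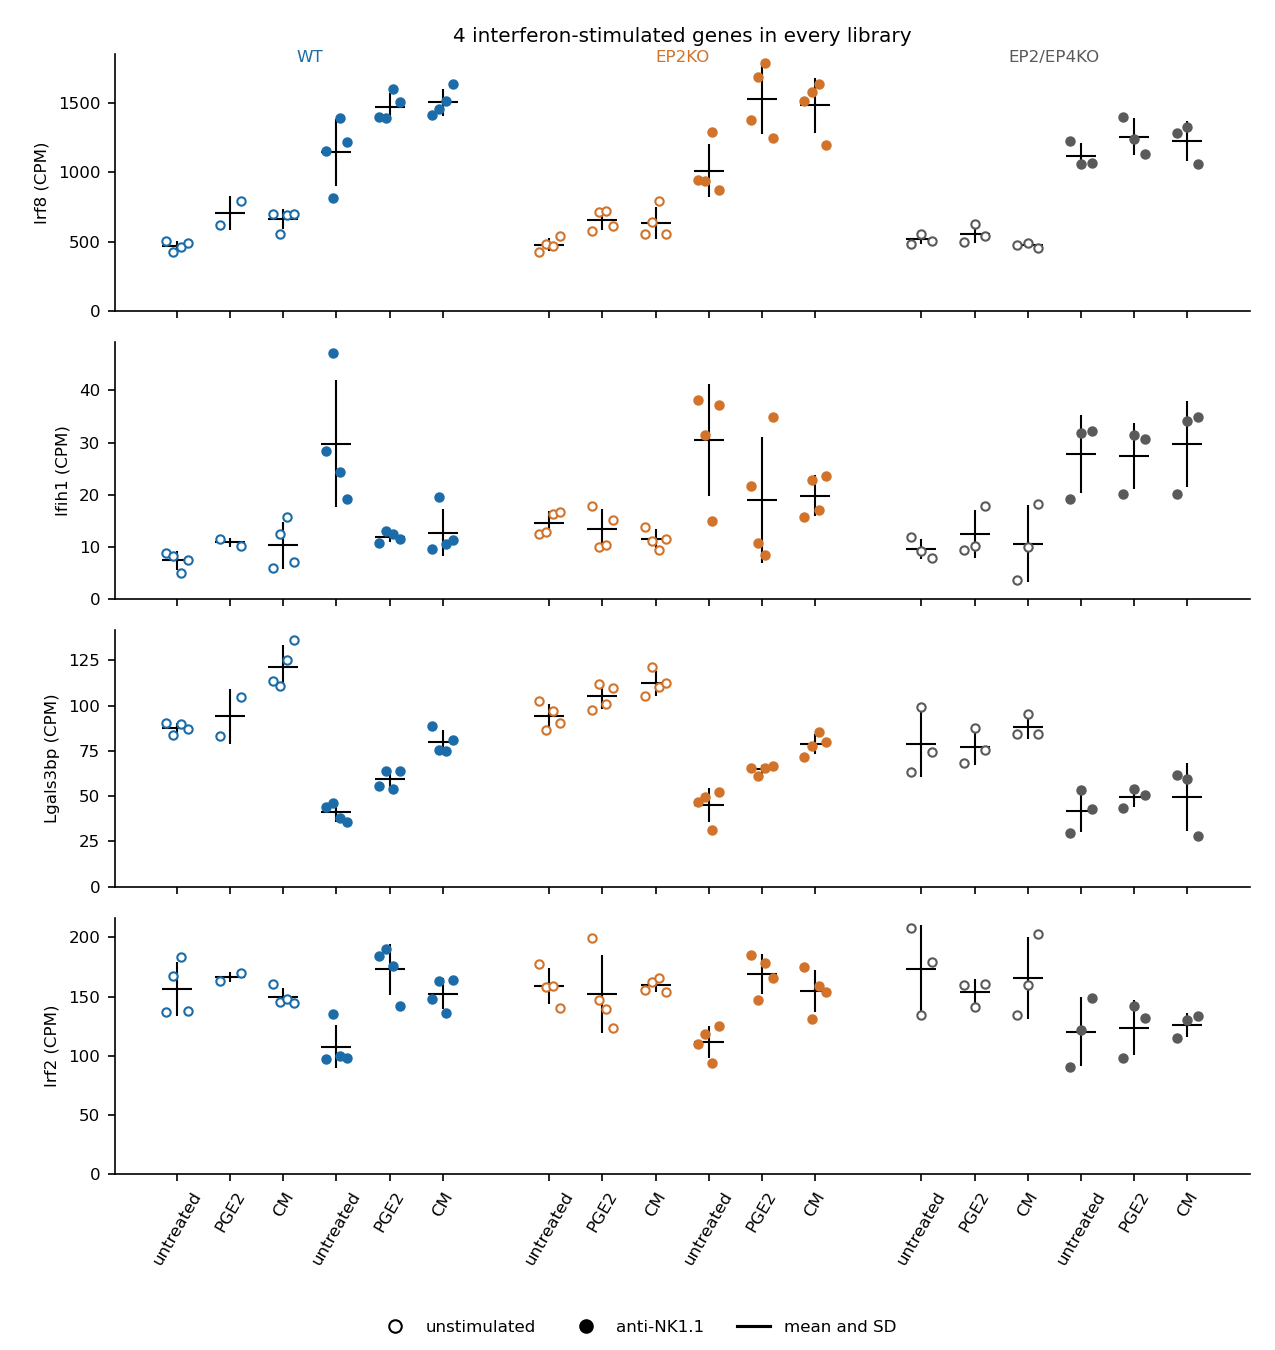
Irf8, Ifih1, Lgals3bp and Irf2 in each library (CPM, linear axes from 0), by genotype and condition, with open points for unstimulated and filled points for stimulated libraries and lines for the mean and SD. With PGE2 and CM the stimulated WT values of Ifih1 sit between 9.59 and 19.5 CPM against 19.1 to 47.1 without treatment, and the stimulated EP2/EP4KO values of Ifih1 run from 19.1 to 34.9 CPM in all 3 treatment groups.

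In stimulated EP2KO cells PGE2 changed 3 members, 2 higher and 1 lower (8.33%), against 7.29% of all genes (3.39% higher and 3.9% lower), with 7 at an unadjusted p under 0.05. Irf2 rose from 109.9, 119, 93.9 and 125 to 185, 147, 178 and 166 CPM without overlap (0.50 ± 0.13, adjusted p = 0.0109). Irf8 rose from 945, 939, 1294 and 869.7 to 1382, 1689, 1786 and 1251 CPM (0.49 ± 0.16, adjusted p = 0.0434), with untreated replicate 3 at 1294 above treated replicate 4 at 1251. Isg20 fell from 12.1, 18.8, 18.8 and 41.02 to 7.95, 12.95, 6.95 and 22.9 CPM with overlap (-0.97 ± 0.30, adjusted p = 0.0298). The calls of Irf8 and Isg20 were each lost in 5 of 8 cases when 1 library was left out. When 1 replicate number was left out, Irf2 was lost in 2 of 4 cases, Irf8 in 3 and Isg20 in 4. Irf2 was not called without the filter, and Isg20 was not called in the fit of EP2KO alone. Ifih1 was at 21.7, 10.7, 8.499 and 34.9 CPM with PGE2, overlapping the untreated values, and its log2 fold change of -0.83 ± 0.28 did not pass (adjusted p = 0.0572). It was -1.23 and called without PGE2 replicate 4 (adjusted p = 0.00444), -1.004 and called without untreated replicate 3 (adjusted p = 0.0226), and -1.13 and called without replicate 4 in every condition (adjusted p = 0.0215). The PGE2 effect on Ifih1 in EP2KO less that in WT was 0.60 ± 0.42 (95% interval -0.24 to 1.44, adjusted p = 1).

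In stimulated EP2/EP4KO cells PGE2 changed 0 members and 0% of all genes, with 0 members at an unadjusted p under 0.05 and 0 by DESeq2. Ifih1 was at 20.1, 31.4 and 30.6 CPM with PGE2 and 19.1, 31.9 and 32.3 without it (log2 fold change -0.03, 95% interval -0.64 to 0.57), so that the values were mixed. Irf2 was at 98.2, 142 and 132 CPM with PGE2 and 90.8, 122 and 149 without (0.03, 95% interval -0.28 to 0.34), and its values were mixed as well. The EP2/EP4KO minus EP2KO difference was 0.80 ± 0.41 for Ifih1 (adjusted p = 0.607), -0.47 ± 0.21 for Irf2 (0.454), 1.12 ± 0.47 for Isg20 (0.41) and -0.33 ± 0.24 for Irf8 (0.783). None of the 36 members passed that difference, against 0.951% of all genes, with 2 at an unadjusted p under 0.05 and 0 by DESeq2.

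CM in stimulated WT cells changed 4 members, 2 higher and 2 lower (11.1%), against 15.4% of all genes (6.2% higher and 9.22% lower), with 6 at an unadjusted p under 0.05. Lgals3bp, which stimulation had lowered, rose from 44.03, 46.4, 38.2 and 35.5 to 88.5, 75.4, 74.7 and 80.98 CPM, and the groups were far apart (0.85 ± 0.16, adjusted p = 5.36e-05). Ifih1 fell to 9.59, 19.5, 10.4 and 11.3 CPM (-1.34 ± 0.30, adjusted p = 0.000733), with CM replicate 2 at 19.5 above untreated replicate 4 at 19.1. Irf2 was at 148, 163, 136 and 164 CPM, just above the untreated values in CPM but not after the TMM factors (0.39 ± 0.14, adjusted p = 0.0409). Ifi35 fell from 49.3, 47.1, 68.2 and 64.8 to 41.3, 39.8, 37.8 and 49.6 CPM with overlap (-0.57 ± 0.17, adjusted p = 0.0151). Leaving out 1 library ended the Irf2 call in 5 of 8 cases and the Ifi35 call in 4 of 8. Leaving out a replicate number ended them in 3 of 4 and 2 of 4 cases, and neither was called without the filter.

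In stimulated EP2KO cells CM changed 1 member (2.78%), against 10.4% of all genes (4.5% higher and 5.91% lower), with 8 at an unadjusted p under 0.05. It was Lgals3bp, which rose from 46.9, 49.6, 31.6 and 52.4 to 71.8, 77.5, 85.3 and 79.9 CPM without overlap (0.69 ± 0.16, adjusted p = 0.00125). In EP2/EP4KO 0 members passed against 0.0746% of all genes, with 1 at an unadjusted p under 0.05 and 0 by DESeq2. Lgals3bp there was at 61.7, 59.3 and 27.8 CPM with CM and 29.6, 53.1 and 43.02 without (0.23 ± 0.19), with replicate 3 the lowest of the CM libraries. The EP2/EP4KO minus EP2KO difference for Lgals3bp was -0.47 (95% interval -0.95 to 0.02, adjusted p = 0.713). Ifih1 was at 15.7, 22.9, 17.1 and 23.6 CPM in EP2KO (-0.72 ± 0.27, adjusted p = 0.0825) and at 20.1, 34.1 and 34.9 CPM in EP2/EP4KO (0.06 ± 0.30). Irf8 with CM was at 1416, 1455, 1513 and 1636 CPM in WT. The EP2KO libraries had 1516, 1583, 1639 and 1197 CPM of Irf8 and the EP2/EP4KO libraries 1285, 1327 and 1061, with log2 fold changes of 0.27 ± 0.16, 0.43 ± 0.16 and 0.10 ± 0.18, none of which passed. In EP2KO, Irf8 was called at 0.44 by DESeq2 (adjusted p = 0.0373), at 0.45 without the filter (adjusted p = 0.0432) and at 0.45 in the fit of EP2KO alone (adjusted p = 0.0490).

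**Figure D5:**
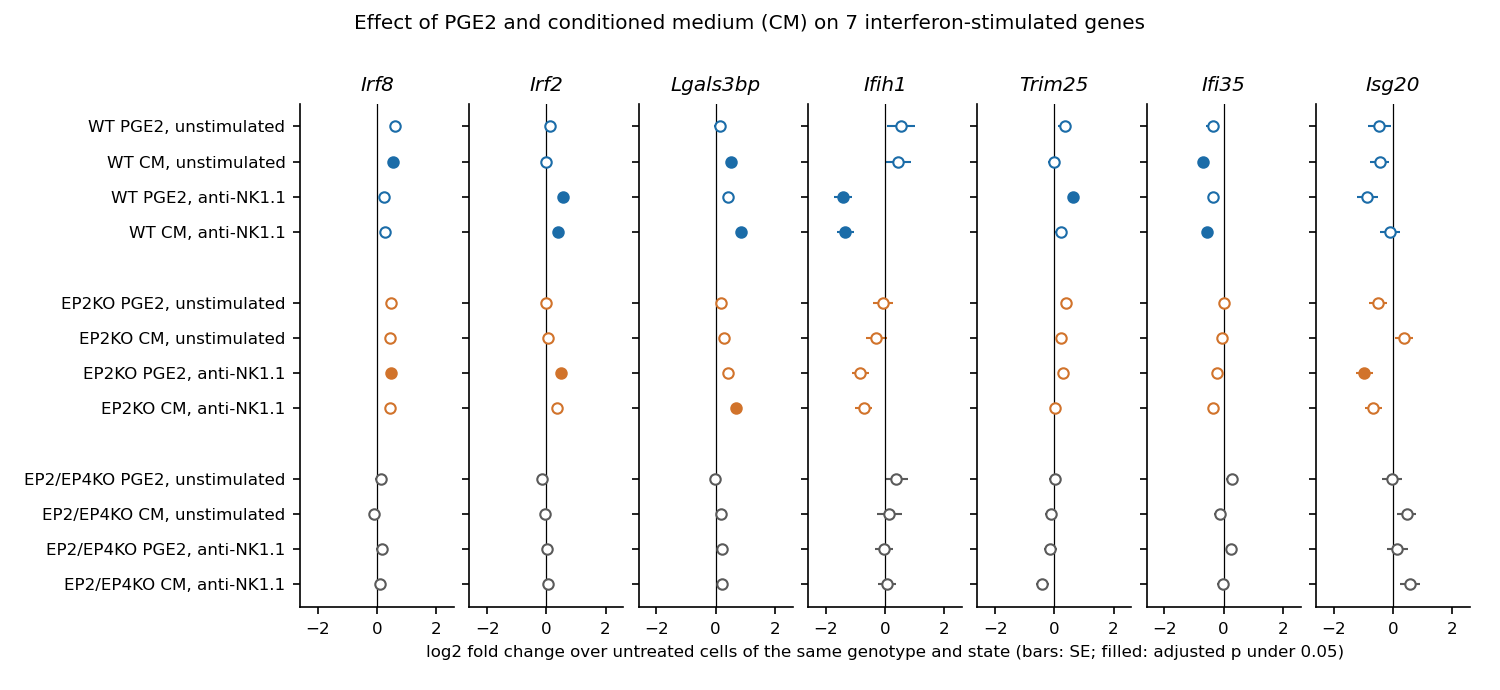
Log2 fold change of 7 members with PGE2 or CM over untreated cells of the same genotype and state, with bars for the SE and filled points for an adjusted p under 0.05. The WT and EP2KO points of Irf8 lie to the right of 0 in all 8 comparisons and those of Ifih1 in stimulated cells to the left, while the EP2/EP4KO points have no filled symbol.

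The comparisons of a treatment share their untreated libraries, so the values of PGE2 and CM stand side by side and are not independent. In stimulated cells, those untreated libraries also enter the stimulation comparison with the opposite sign. Opposite directions of stimulation and treatment, as for Ifih1, Irf2 and Lgals3bp, are therefore in part built in. Set directly against PGE2, CM changed 0 members in unstimulated WT (0% of all genes, 2 members at an unadjusted p under 0.05) and in stimulated WT (0.00933%, 3 members). Over the mean of the 3 genotypes it changed 0 members in unstimulated (0.056%, 5 members) and in stimulated cells (0.438%, 5 members), and DESeq2 called 0 in all 4 comparisons. For Lgals3bp in stimulated WT the CM minus PGE2 difference was 0.44 (95% interval 0.12 to 0.75, adjusted p = 0.82), which did not pass. The treatment effect depended on stimulation for 1 member. With CM in WT, Ifih1 differed by -1.79 ± 0.51 between the states (adjusted p = 0.0433), the only member called there against 2.19% of all genes (0.839% higher and 1.35% lower), and 5 members had an unadjusted p under 0.05. That call was lost in 10 of 16 cases when 1 library was left out, with values from -2.04 to -1.44, in 4 of 4 when 1 replicate number was, and by DESeq2. With PGE2 the Ifih1 difference was -1.98 ± 0.57 (adjusted p = 0.0654), and 0 members passed against 1.31% of all genes, with 4 at an unadjusted p under 0.05 and 1 by DESeq2.

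No treatment effect was called different between EP2KO and WT. The EP2KO minus WT differences of PGE2 and CM, in both states, passed for 0 members and 0% of all genes, with 1, 1, 2 and 0 members at an unadjusted p under 0.05 for PGE2 and CM without and PGE2 and CM with stimulation, and 0 by DESeq2. The EP2/EP4KO minus EP2KO differences passed for 0 members as well, against 0.354% and 0.214% of all genes for PGE2 and CM without stimulation and 0.345% for CM with it. There 1, 1 and 2 members had an unadjusted p under 0.05, and DESeq2 called 0.

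The receptors, kinases and factors that carry the interferon signal were counted from a list of 32 symbols, of which 26 were tested. The list was chosen with earlier results of these data known, so its shares are a description. On stimulation in WT 7 rose and 6 fell (50%, against 42% of all genes), in EP2KO 8 and 5 (50%, against 33.3%), and in EP2/EP4KO 6 and 4 (38.5%, against 30.2%). The gene of interferon gamma itself, Ifng, went from 225, 249.5, 215 and 197 to 1542, 1166, 1916 and 2318 CPM in WT (log2 fold change 3.12 ± 0.20, adjusted p = 9.52e-21), and no value overlapped. Its receptor chain Ifngr1 went the other way, from 1168, 1098, 1229 and 1225 to 281, 193, 192 and 188 CPM (-2.34 ± 0.15). Jak2, the kinase on the other receptor chain, went from 82.8, 74.9, 66.2 and 66.1 to 246, 449, 266 and 248 CPM (2.17 ± 0.17). All 3 were called the same way in the knockouts, with Ifng at 3.07 and 3.09, Ifngr1 at -2.28 and -2.30, and Jak2 at 1.73 and 1.58 in EP2KO and EP2/EP4KO. The type I receptor chains fell in WT, Ifnar2 by 1.25 ± 0.20 and Ifnar1 by 0.60 ± 0.16, as did Jak1 at -0.47, Sting1, an adaptor of DNA sensing, at -0.75, and Socs1, an inhibitor of the pathway, at -0.96. Irf4 rose by 2.78 ± 0.24. Stat2 (-0.33 ± 0.28), Tyk2 (0.22 ± 0.20) and Ifngr2 (1.23 ± 1.07) did not pass. Ifnb1 was at 0 in 22 of 22 WT, 23 of 24 EP2KO and 18 of 18 EP2/EP4KO libraries.

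In stimulated WT cells PGE2 changed 10 of the 26 signalling genes, 3 higher and 7 lower, and CM changed 10, also 3 and 7. That is 38.5% each, against 15.6% and 15.4% of all genes. Because the list was chosen with earlier results of these data known, such an excess does not set it apart. Ifng was at 577, 532, 509.9 and 523 CPM with PGE2 and 647, 698, 649 and 745 with CM, all below the untreated range (-1.85 ± 0.18 and -1.48 ± 0.18). Ifngr1 was at 998, 961, 1143 and 1062 CPM with PGE2 and at 969, 788, 885 and 875 with CM, all above it (2.16 ± 0.15 and 1.93 ± 0.15). Jak2 fell to 111, 129, 100.2 and 90.4 CPM with PGE2 (-1.61 ± 0.16), and Ifnar1 rose by 0.69 ± 0.16. Stat3 rose with PGE2 from 200.0, 197, 193 and 169.9 to 983, 840.3, 799 and 855 CPM (2.07 ± 0.13). It was also called in unstimulated WT cells, at 1.99 ± 0.15 with PGE2 and 1.93 ± 0.13 with CM, where Ptpn6, a phosphatase, fell by 1.88 ± 0.20 and 1.59 ± 0.17. Tyk2 had -0.58 ± 0.21 with PGE2 and was called lower. In stimulated EP2KO 2 signalling genes rose and 5 fell with PGE2 and 3 rose and 4 fell with CM (26.9% each, against 7.29% and 10.4% of all genes). In stimulated EP2/EP4KO 0 passed with either, against 0% and 0.0746%, with 1 and 2 at an unadjusted p under 0.05.

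A second list held 75 other interferon-stimulated genes, of which 58 were tested. It too was chosen with earlier results of these data known. On stimulation 6 rose and 23 fell in WT with a median of -0.38, 9 rose and 20 fell in EP2KO, and 3 rose and 17 fell in EP2/EP4KO. Of all genes, 42%, 33.3% and 30.2% were called in these comparisons. Those with the smallest p in WT were Epsti1 at -1.76, Ifi209 at -1.46 and Sp100 at -1.25 among the lower, and Cd274, which encodes the checkpoint ligand PD-L1, at 1.84, Pnpt1 at 1.06 and Serpina3g at 0.66 among the higher. PGE2 in stimulated WT raised 7, among them Ifi209 at 0.99, Sp100 at 0.50 and Ms4a4b at 0.48, and lowered 8, among them Serpina3g at -1.70, Ifi203 at -0.97 and Serpina3f at -1.72. CM there raised 5 and lowered 3. These are shares of 25.9% and 13.8% of the list, against 15.6% and 15.4% of all genes. Without stimulation 0 rose and 4 fell with PGE2 and 0 rose and 7 fell with CM in WT (6.9% and 12.1%, against 2.97% and 8.23% of all genes), with Serpina3g at -1.33 and -1.41, Serpina3f at -2.35 and -2.59, and Ly6e at -0.75 and -0.64.

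In all, 24 of the 36 tested members were called in at least 1 of the 35 comparisons and 12 in none. The matching share over all genes is not given here, so the count does not set the members apart. Stimulation in untreated WT alone called 42% of all genes. Over the 64 libraries, the 12 without a call ranged as follows in CPM. Irf1 ran from 33.2 to 113, Eif2ak2 (PKR, which halts translation) from 12.3 to 49.9, Cmpk2 (a nucleotide kinase) from 0 to 15.2 and Ifit2 (an RNA-binding protein) from 0.964 to 20.8. Bst2 (tetherin, which holds virus particles at the cell surface) ran from 8.98 to 53.1, Parp14 (an ADP-ribose transferase) from 29.4 to 108 and Usp18 (which removes ISG15) from 0 to 12.9. Of the GTPases, Gbp3 ran from 26.8 to 82.6, Gbp6 from 0 to 14.3, Gbp7 from 75.1 to 350.2, Igtp from 19.4 to 213 and Irgm1 from 6.18 to 88.1. Dhx58, a relative of the RNA sensors, had a count in 57 libraries, and Oasl2, of the oligoadenylate synthetase family, in 53.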

How the data were processed

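The authors deposited raw counts per gene symbol for 64 libraries as 1 table, with whole numbers that sum to a different total in each library. The submitters' processing notes name the build GRCm38 (mm10) and DESeq2. Not given in the sources used here are the aligner, counting tool, annotation, use of strand and whether unique molecules were counted. In the GENCODE annotation of GRCm38, 20 of the 38 members overlap another gene, so their counts may be shared.

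A filter on low counts (filterByExpr of edgeR, 10 as its minimum) kept 10723 genes with 99.2% of the counts. One model with a mean for each of the 18 groups was fitted to the 64 libraries (TMM normalization, edgeR 4.0.16 quasi-likelihood, limma 3.58.1, R 4.3.3), and p-values were adjusted over all 10723 genes by the Benjamini-Hochberg method at 0.05. The code was checked on simulated counts. The members and lists were chosen with earlier results of these data known. Named with values are up to 5 called members each way by p in WT and up to 3 in other comparisons, every member where 5 or fewer were called, and Irf1, Irf7, Irf8, Irf9, Isg15 and Gbp2 throughout. Shown by the same p order are genes of 2 further lists, and Ifit3 was too low to test. A few values beyond this rule were added after they were seen, among them Iigp1, Igtp, Irgm1 and Samhd1 by replicate number. None of 85 pairs of replicates was identical. Same-numbered libraries of a genotype correlated at or under 0.1 in 32 of 155 pairs and above it in every pair of 6 of 15 comparisons, for which the blocked result stands in the text where it changed a count. The pairing comes from the replicate numbers in the titles. Alternatives were RLE normalization, no filter, DESeq2 1.42.0, a fit of only the genotypes compared, the replicate block, and leaving out each library or, added after the data were seen, each replicate number.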

Additional observations from a re-analysis of the deposited data

Results flagged for a closer look

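The highest or lowest of 4 libraries stood far from the other 3, by a gap above Dixon's critical value, in 23 of 308 groups tested (7.47%), and chance alone gives about 1 in 20. In unstimulated WT with CM these were Ifi47 in replicate 4 (115 CPM), Ifit1 in replicate 3 (1.31, which is 1 count beside 0 in the other 3, so that any single count would stand apart), Irf1 in replicate 2 (82.7), Irf8 in replicate 2 (554, the lowest), Zbp1 in replicate 1 (36.5) and the summed regulators in replicate 2 (829, the lowest). In stimulated WT they were Irf2 (135) in untreated replicate 2, Xaf1 (5.68, the lowest) in untreated replicate 3, Rtp4 (7.71) with PGE2 in replicate 3, and the summed ISG15 and ubiquitin members (144, the lowest) with CM in replicate 4. With PGE2 in stimulated WT, replicate 2 stood out for Iigp1 (109.8) and the summed GTPases (839).

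In unstimulated EP2KO they were Irf7 (27.4) and Trim25 (38.8, the lowest) with PGE2 in replicate 3, and Rsad2 (21.2) with CM in replicate 4. In untreated stimulated EP2KO they were Ifi47 (185) and Rtp4 (19.7) in replicate 4 and the summed regulators (1459) in replicate 3. In treated stimulated EP2KO they were Rsad2 in replicate 4 with PGE2 (19.0) and with CM (19.8), Gbp9 (28.2) and the summed other members (167) with PGE2 in replicate 1, and Irf9 (20.5, the lowest) with CM in replicate 3. Rsad2 stood out in the same replicate number under both treatments of stimulated EP2KO cells. The effect of CM on Ifih1 in WT differed between stimulated and unstimulated cells by -1.79 on the log2 scale in the interaction test, a call lost in 10 of 16 cases when 1 library was left out, in 4 of 4 when 1 replicate number was, and by DESeq2.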

How the results depend on the processing

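The counts of called members in the 35 comparisons stayed within 1.5 times under RLE normalization. Without the filter, the count was 1 for PGE2 in unstimulated WT, 2 for CM in stimulated WT, 2 for CM in stimulated EP2KO, 1 for PGE2 by stimulation and 2 for untreated stimulated EP2KO against WT (Ifi47 and Isg15). DESeq2 gave 1 for PGE2 in unstimulated WT, 2 for CM in stimulated EP2KO, 1 for PGE2 by stimulation and 0 for CM by stimulation. The fit of only the genotypes compared gave 6 for PGE2 in stimulated WT and 3 for CM in stimulated EP2KO. With the replicate block, the counts for unstimulated cells were 2 (PGE2, WT), 1 (PGE2, EP2KO), 5 (CM, WT) and 3 (CM, EP2KO), those for stimulated cells 9 (PGE2, WT), 6 (PGE2, EP2KO), 7 (CM, WT) and 5 (CM, EP2KO), those for CM against PGE2 in unstimulated cells, PGE2 by stimulation and CM by stimulation 1, 1 and 2, and that for anti-NK1.1 in EP2/EP4KO 17. The block moved no other count by over 1.5 times, and 51 of 64 libraries correlated best with their own number.

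Leaving out 1 library gave 12 to 19 calls for WT with anti-NK1.1, 9 to 16 for EP2KO, and for EP2/EP4KO 6 to 11. Leaving out a replicate number gave 10 to 13, 7 to 17 and 5 to 9. Over both ways the counts ran from 0 to 1 for CM by stimulation, 1 to 3 for CM in stimulated EP2KO, 2 to 5 for CM in stimulated WT, 0 to 4 for CM in unstimulated WT, 0 to 4 for PGE2 in stimulated EP2KO, 2 to 8 for PGE2 in stimulated WT and 0 to 6 for untreated stimulated EP2KO against WT. Of the single calls in EP2KO after stimulation, leaving out 1 library lost Isg15 in 5 of 8 cases, Ifit1 in 3, Rsad2 in 2 and Iigp1 in 1, and DESeq2 lost Ifit1 and Isg15. Some log2 values near 0 that were not called changed sign when 1 library was left out. On stimulation they ran from -0.24 to 0.74 for Gbp2 in WT, -0.35 to 0.13 for Irf1 in EP2KO and -0.22 to 0.40 for Gbp2 in EP2/EP4KO, and for Ifih1 in stimulated EP2/EP4KO from -0.21 to 0.12 with PGE2 and -0.11 to 0.27 with CM. Without a replicate number they came to 0.087 (Isg15, WT, replicate 1), -0.17 (Gbp2, WT, 2), -0.24 (Irf1, EP2KO, 4), -0.093 (Gbp2, EP2/EP4KO, 2) and 0.017 (Ifih1 with PGE2, EP2/EP4KO, 3). The cause of these changes was not tested. At about 1 count per CPM, members of a few CPM allow only large changes to be seen.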
